A study of Mus musculus with 6 samples.

Results

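Of the class II myosin heavy chain genes, the 8 that are not the fast or developmental skeletal chains were followed from myoblasts to myotubes. They were chosen by their symbols among the 54525 gene rows of the count files: *Myh7*, *Myh6* and *Myh7b* (slow and cardiac), *Myh13* (extraocular), *Myh11* (smooth muscle) and *Myh9*, *Myh10* and *Myh14* (nonmuscle). All 8 had a row. The 5 fast and developmental chains, *Myh1*, *Myh2*, *Myh3*, *Myh4* and *Myh8*, are given only for comparison. The cells were C2C12, an established mouse myoblast line whose cells leave the cell cycle and fuse into multinucleated myotubes when serum is withdrawn. Total RNA was sequenced from 3 cultures of wild-type, untreated myoblasts kept in growth medium (day 0, D0) and from 3 cultures of wild-type, untreated myotubes after 5 days in differentiation medium with horse serum (D5). All libraries came from this 1 cell line, and the labels give the cell type of the D5 samples as myoblasts too.

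Myosin II is a hexamer of a pair of heavy chains, each of which carries an essential and a regulatory light chain. The heavy chain holds the motor head that pulls on actin and a coiled-coil tail that assembles into filaments. In sarcomeres the heavy chain sets how fast a fiber shortens: *Myh7* encodes the slow, beta-cardiac chain of type I fibers and ventricle, *Myh6* the alpha-cardiac chain, *Myh7b* a slow chain of the same branch, and *Myh13* the chain of extraocular muscle. *Myh11* encodes the smooth muscle chain. *Myh9*, *Myh10* and *Myh14* encode the heavy chains of nonmuscle myosin IIA, IIB and IIC, which drive cortical tension, stress fibers, migration and the contractile ring of dividing cells.

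The 3 slow and cardiac genes each hold a microRNA in an intron, on the strand of the host gene. The mature sequences are shown because they tie the 3 genes together beyond their coding sequence. They are from RefSeq on GRCm38.p6, printed 5′ to 3′ with the seed (bases 2 to 8) in capitals.
mmu-miR-208a-3p: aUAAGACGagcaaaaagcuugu
mmu-miR-208b-3p: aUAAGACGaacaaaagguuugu
mmu-miR-499-5p: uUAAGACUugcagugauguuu
The first of these lies at chr14:54949072-54949093 (minus strand) in intron 29 of 38 of *Myh6*, the next at chr14:54975710-54975731 (minus strand) in intron 31 of 40 of *Myh7*, and the last at chr2:155622893-155622913 (plus strand) in intron 19 of 41 of *Myh7b*. The seed of the miRNAs in *Myh6* and *Myh7* is the same, UAAGACG, and that of the miRNA in *Myh7b* is UAAGACU. The RNA libraries were not made from small RNA, so the mature miRNAs were not measured.

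In GRCm38, *Myh6* (chr14:54941921-54966927) and *Myh7* (chr14:54970684-54994626) lie on the minus strand with 3756 bases between them. *Myh7b* (chr2:155611212-155634307) is on the plus strand of another chromosome. *Myh13* (chr11:67321658-67371586, plus strand) starts 13023 bases after the end of *Myh8*, in the cluster of the fast and developmental chains. *Myh10* (chr11:68691559-68816632, plus strand) begins 1319972 bases after *Myh13*. *Myh11* (chr16:14194535-14291372), *Myh9* (chr15:77760587-77842175) and *Myh14* (chr7:44605803-44670843) are each on a chromosome of their own, on the minus strand. Over the coding sequences, *Myh6* and *Myh7* were identical at 91.8% of aligned bases. *Myh7* matched *Myh7b* at 73.6% and *Myh9* at 66.9%. Among the nonmuscle genes, *Myh9* matched *Myh10* at 75.4% and *Myh14* at 73.5%.

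The D0 libraries held from 36555048 to 40895840 counts on genes and the D5 libraries from 25449759 to 25811300. Levels within a gene are given as CPM (counts per 1000000, scaled with edgeR's TMM factors) and levels between genes as TPM (counts divided by the exonic length of the gene, scaled to the same sum in every library). Detection was set at more than 3 counts per library, a limit that covers counting error only. Of 7 genes used to check the labels, 6 rose at D5, among them the fusion gene *Mymk* (1.57 ± 0.350 to 818 ± 35.9 CPM) and muscle creatine kinase, *Ckm* (2.09 ± 0.507 to 653 ± 22.4 CPM), and the myoblast factor *Myod1* fell from 207 ± 6.24 to 126 ± 3.95 CPM (SD, n = 3 libraries a group here and below). With edgeR's quasi-likelihood model and a threshold of 0.05 on the adjusted p, 82.9% of the 16290 genes tested differed, with 6869 (42.2%) higher and 6641 (40.8%) lower in myotubes. With scaling to the ERCC spike-ins, synthetic RNAs added to each sample, 1813 genes were higher and 3747 lower, and the median log2 fold change of all genes was -0.58 in place of 0.0022.

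All the slow and cardiac chains rose at D5, and of the nonmuscle chains *Myh9* and *Myh10* fell while *Myh14* rose. Of the 8 genes, 6 had enough counts for the test. Of these, 4 were higher at D5 (*Myh7*, *Myh6*, *Myh7b* and *Myh14*), beside 42.2% of all genes tested, and 2 were lower (*Myh9* and *Myh10*), beside 40.8%. *Myh13* and *Myh11* did not pass the filter on low counts and are given as counts. In 7 of the 8 genes, the 6 tested and *Myh13*, the libraries of the 2 groups did not overlap. Among all genes tested, which leave out *Myh13*, 42.2% had every D5 library above every D0 library and 41.1% every one below. A lack of overlap is thus not particular to these genes. All 4 rises were of at least 5 on the log2 scale, which 3.89% of the genes tested reached while called higher, and the rises of *Myh7*, *Myh6* and *Myh7b* were of at least 8, which 1.18% reached. In bulk RNA, fewer cells that express a gene and less RNA per cell cannot be told apart, and this holds for every fall and rise below.

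**Figure D1:**
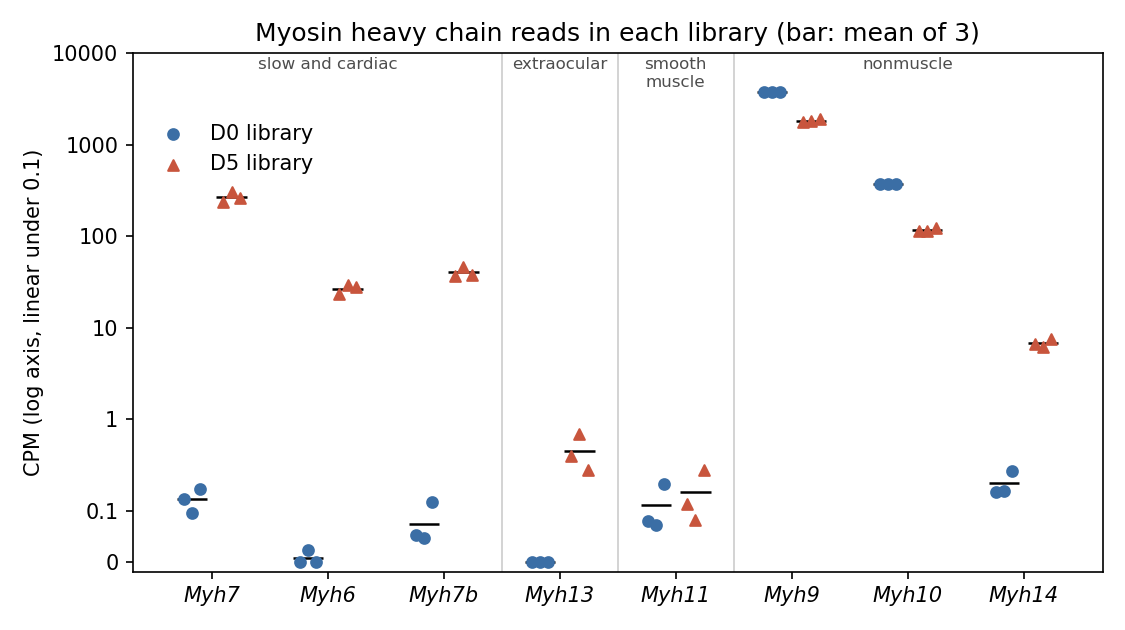
Level of each of the 8 heavy chain genes in each library, in CPM on a log axis that is linear under 0.1. Blue circles are the 3 D0 libraries, red triangles the 3 D5 libraries and black bars the means. *Myh9* is the highest in both groups (3739 and 1823 CPM on average), *Myh7*, *Myh6* and *Myh7b* lie below 0.2 CPM at D0 and above 20 at D5, and only *Myh11* overlaps between the groups.

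*Myh7*, the gene of the slow-fiber and ventricular chain, went from a trace to one of the well expressed genes of the myotubes. Its counts were 5, 4 and 7 in the D0 libraries and 5920, 7480 and 6462 in the D5 libraries. The D0 libraries were just above the limit of detection, and the D5 libraries differed from each other by far less than from D0, with replicate 2 the highest. In CPM the level rose from 0.134 ± 0.0393 to 266 ± 34.4, a log2 fold change of 10.92 (SE 0.129, edgeR adjusted p = 6.1e-34). The ratio of the groups was 1992, with a 95% counting interval from 1226 to 3486 because of the few D0 reads. At 95.7 ± 10.6 TPM in D5, *Myh7* took rank 1498 among all genes.

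The sequence before the *Myh7* start is shown as that of the slow and cardiac gene with the highest level (RefSeq, GRCm38.p6, chr14:54994627-54994876, minus strand, 250 bases ending at the base before the most upstream RefSeq start, read in the direction of the gene, with no annotated exon inside). Capitals mark every match, on both strands, to the E-box CANNTG, the TEAD core CATTCC, the CCAAT box, the TATA sequence TATAAA, the GC box GGGCGG, the CArG box and the MEF2 site.
Myh7: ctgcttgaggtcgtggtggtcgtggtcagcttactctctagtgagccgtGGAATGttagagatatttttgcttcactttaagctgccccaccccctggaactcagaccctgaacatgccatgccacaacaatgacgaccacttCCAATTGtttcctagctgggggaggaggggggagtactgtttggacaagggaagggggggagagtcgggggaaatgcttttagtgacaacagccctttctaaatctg
It held 1 CATTCC, read on the other strand, at -201, and 1 CCAAT at -107 that overlaps 1 CANNTG at -106, and none of the others. The matches depend on the start: RefSeq has another *Myh7* start 77 bases downstream, before which the 250 bases held no CATTCC, 1 CCAAT and 2 matches to CANNTG. Of 32851 such sequences over all genes, 12.6% held CATTCC, 33.8% CCAAT and 66.2% CANNTG. A match is a description of the letters and not a binding site.

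*Myh6*, the alpha-cardiac gene that lies next to *Myh7*, was close to absent in myoblasts. Its counts were 0, 1 and 0 at D0 and 584, 719 and 690 at D5. All D0 libraries were under the limit of detection and every D5 library was far above it. Its CPM rose from 0.00792 ± 0.0137 to 26.7 ± 3.09 (edgeR adjusted p = 1.2e-27). The ratio rests on a single D0 read: it was 3198, with a 95% counting interval from 573 to 126382. The fitted log2 fold change of 11.10 (SE 0.231) became 12.66 without D0 replicate 2, the library that held that read. Within the D5 libraries *Myh7* stood 7.77 times above *Myh6* per exonic length and 9.96 times in CPM, which divides by no length. Some reads cannot be assigned between the neighbours: 20.2% of the 50-base stretches of *Myh6* transcripts and 15.6% of those of *Myh7* were also in the other gene, and how reads with several matches were counted is not stated. Summed, the 2 genes had a log2 fold change of 10.97.

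*Myh7b*, whose intron holds the miR-499 precursor, had 2, 2 and 5 counts at D0 and 933, 1122 and 944 at D5. It was detected above the limit in only D0 replicate 3 and in all D5 libraries. The level went from 0.0750 ± 0.0426 to 40.2 ± 4.62 CPM, a log2 fold change of 8.99 (SE 0.161, adjusted p = 2.6e-29 in edgeR's test). None of its 50-base stretches was shared with another class II heavy chain, unlike those of *Myh7* and *Myh6*. The level at D5 was 18.8 TPM, so that *Myh7* exceeded it 5.09 times per exonic length, and 6.62 times in CPM.

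The other RNAs of these loci stayed at or near the limit of detection. The precursor row of *Mir208a* had 0, 2 and 0 counts at D5, that of *Mir208b* 0, 0 and 1, and that of *Mir499* 1, 0 and 0, and all 3 had none at D0. None of the 3 could be tested. Since the libraries were not made from small RNA, these counts do not tell how much of each precursor was made. *Mhrt*, a long noncoding RNA made from the other strand of *Myh7*, had no counts at D0 and 3, 5 and 8 at D5. It shares 484 exonic bases with *Myh7* (5.62% of the exonic length of *Myh7*). With the strand setting unknown, reads of the 2 genes within those bases cannot be told apart.

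*Myh13*, the extraocular chain, was found only in the D5 libraries, at a low level. It had no counts in the 3 D0 libraries and 10, 17 and 7 at D5, or 0.456 ± 0.210 CPM. Against a limit of 3 counts in each D0 library this is at least 6.06-fold higher. Of its 50-base stretches, 8.26% were also in another class II heavy chain, with the most in *Myh8* (4.75%) and *Myh1* (3.15%), which were abundant at D5, and the part of shared reads in these few counts was not tested.

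*Myh11*, the smooth muscle chain, was at the limit of detection in both groups. Its counts were 3, 3 and 8 at D0 and 3, 2 and 7 at D5, and the libraries of the groups overlapped. In CPM these were 0.117 ± 0.0711 and 0.161 ± 0.106, a ratio of 1.38 with a 95% counting interval from 0.581 to 3.20, so a difference was not detectable at this depth. The defining smooth muscle heavy chain was thus nearly lacking, although some other genes of smooth muscle were abundant in these myoblasts. Of 10 smooth muscle markers, all tested, 5 fell and 3 rose, beside 40.8% and 42.2% of all genes tested. Their median log2 fold change was -0.82, and their summed level went from between 4278 and 4423 CPM at D0 to between 1502 and 1630 at D5. Most of this sum was *Acta2* (2855 ± 57.4 to 1011 ± 65.9 CPM). Other markers were low at D0, among them *Myocd* at 0.374 ± 0.0287 and *Lmod1* at 10.7 ± 0.928 CPM. The largest falls were those of calponin, *Cnn1* (155 ± 3.26 to 1.03 ± 0.250 CPM), and gamma smooth muscle actin, *Actg2* (424 ± 5.31 to 4.17 ± 0.384 CPM). The largest rises were those of the integrin chain *Itga8* (0.0247 ± 0.0238 to 1.87 ± 0.233 CPM) and of *Aoc3* (0.740 ± 0.0795 to 3.64 ± 0.593 CPM).

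*Myh9*, the heavy chain of nonmuscle myosin IIA, was the most abundant of the 8 in both groups and was lower in myotubes. The D0 libraries held 139706, 158231 and 150304 reads on it and the D5 libraries 44485, 44311 and 47359. As CPM these were 3727, 3761 and 3730 at D0 and 1770, 1797 and 1902 at D5, with all D5 libraries well below all D0 libraries. The level went from 3739 ± 18.9 to 1823 ± 70.0 CPM, or 48.7% of D0, a log2 fold change of -1.04 (SE 0.034, adjusted p = 2.5e-22 in edgeR's test). On the scale of the spike-ins the log2 fold change was -1.61 (SE 0.519), which is -1.04 relative to the median of all genes. Per length, *Myh9* took rank 97 of all genes at D0 (1001 TPM) and rank 259 at D5 (438 TPM).

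The sequence before the *Myh9* start is set beside that of *Myh7* as the example of a heavy chain gene that fell (RefSeq, GRCm38.p6, chr15:77842176-77842425, minus strand, with no annotated exon inside), with the same motifs in capitals.
Myh9: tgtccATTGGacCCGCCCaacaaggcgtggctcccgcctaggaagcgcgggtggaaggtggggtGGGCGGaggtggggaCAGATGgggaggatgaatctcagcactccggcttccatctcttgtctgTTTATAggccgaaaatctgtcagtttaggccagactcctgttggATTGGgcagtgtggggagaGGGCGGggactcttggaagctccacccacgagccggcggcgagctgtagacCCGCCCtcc
It held 4 matches to GGGCGG, 2 matches to CCAAT, 1 match to TATAAA and 1 match to CANNTG. The *Myh7* sequence had no GGGCGG and no TATAAA. Those of *Myh6*, *Myh7b* and *Myh14*, which rose, also had neither. But *Myh10*, which fell, had neither as well, and *Myh13*, found only at D5, had 1 GGGCGG. Most of the fast and developmental chains, which all rose, did hold TATAAA. There were 2 matches before *Myh1*, 1 before *Myh3*, 3 before *Myh4* and 1 before *Myh8*, while *Myh2* had none. Some of these sequences ran into annotated exons, for 178 bases in *Myh10*, 50 in *Myh1*, 34 in *Myh6*, 31 in *Myh7b* and 12 in *Myh13* and *Myh4*. Over all 32851 sequences, 32.7% held GGGCGG and 12.4% TATAAA.

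*Myh10*, the heavy chain of nonmuscle myosin IIB, had 14040, 15543 and 14863 counts at D0 and 2829, 2786 and 3080 at D5. Replicates differed little, and the groups lay far apart. The level fell from 371 ± 3.13 to 116 ± 6.33 CPM, or 31.4% of D0, a log2 fold change of -1.67 (SE 0.036, adjusted p = 3.7e-27 in edgeR's test). On the spike-in scale the log2 fold change was -2.26. Its rank by TPM went from 1226 to 4245. *Myh10* fell by more than *Myh9*: the log2 TPM ratio of *Myh9* to *Myh10* within a library was 3.03 ± 0.0169 at D0 and 3.66 ± 0.0248 at D5, a difference of 0.64. This ratio does not depend on how the libraries were scaled. All D5 ratios were above all D0 ratios, and the two-sided exact permutation p was 0.1, the smallest that 3 against 3 libraries can give.

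*Myh14*, the heavy chain of nonmuscle myosin IIC, moved the other way, from a low level. It had 6, 7 and 11 counts at D0 and 166, 153 and 186 at D5. Every D5 library was above every D0 library. The level rose from 0.200 ± 0.0634 to 6.76 ± 0.648 CPM, a ratio of 33.8 (95% counting interval 22.4 to 53.2) and a log2 fold change of 5.05 (SE 0.203, adjusted p = 4.1e-20 in edgeR's test). At 2.89 TPM in D5 it remained the lowest of the nonmuscle chains. Its share of nonmuscle heavy chain transcripts went from 0.00846% ± 0.00271 to 0.606% ± 0.0381. In the same class *Myh9* went from 89.1% ± 0.114 to 92.1% ± 0.150 and *Myh10* from 10.9% ± 0.114 to 7.27% ± 0.113, each with groups that did not overlap and an exact permutation p of 0.1.

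**Figure D2:**
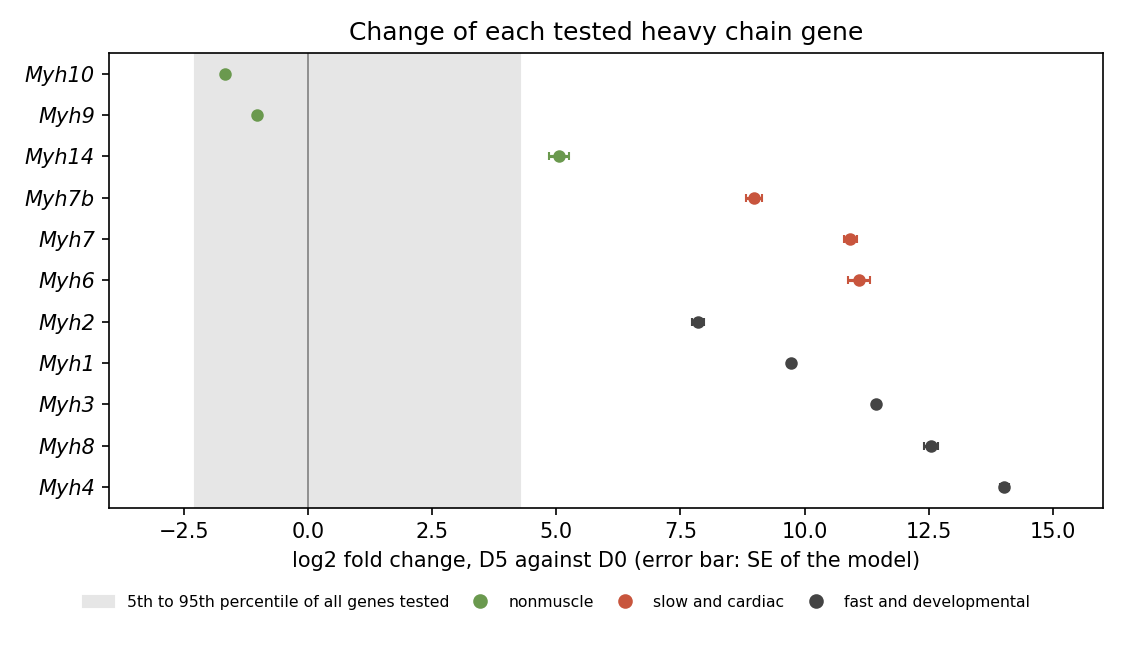
Log2 fold change of D5 against D0 for the 6 tested genes and the 5 fast and developmental chains, with the SE of edgeR's model as error bars and the 5th to 95th percentile of all genes tested (-2.28 to 4.26) as a grey band. *Myh9* and *Myh10* lie inside the band on the falling side, and all the others lie to the right of it.

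The chains were then compared per length. At D0 the order by TPM was *Myh9* (1001), *Myh10* (123), *Myh1*, *Myh3*, *Myh2* and *Myh14* (0.0954), with no overlap between the libraries of neighbours. Below these came *Myh7*, *Myh11*, *Myh7b*, *Myh4*, *Myh8*, *Myh6* and *Myh13*, whose libraries overlapped from neighbour to neighbour. At D5 the order was *Myh3* (2407), *Myh1* (1814), *Myh4* (464), *Myh9* (438), *Myh7* (95.7), *Myh8* (45.6), *Myh2* (38.9), *Myh10* (34.6), *Myh7b* (18.8), *Myh6* (12.3), *Myh14* (2.89), *Myh13* (0.228) and *Myh11* (0.0655), and here only *Myh2* and *Myh10* overlapped. *Myh7* was thus the highest of the 8 after *Myh9* in myotubes. Of the fast and developmental chains, it stood above *Myh8* and *Myh2* and below *Myh3*, *Myh1* and *Myh4*. The place of *Myh9* depends on the length used: its annotated exons cover 12928 bases while its longest coding transcript has 7433. Per length of the longest coding transcript, *Myh9* (245 CPM per kilobase) stood above *Myh4* (149) at D5, *Myh10* (15.0) and *Myh2* (14.7) again overlapped, and *Myh7* (42.7) still stood above *Myh8* (28.1).

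The class II heavy chain transcripts of a library went from almost wholly nonmuscle to mostly fast and developmental. The nonmuscle class took 99.67% ± 0.0341 of their TPM at D0 and 8.85% ± 0.455 at D5, the slow and cardiac class 0.00861% ± 0.00292 and 2.36% ± 0.243, and the fast and developmental class 0.318% ± 0.0329 and 88.8% ± 0.444. For each class the groups did not overlap, with an exact permutation p of 0.1. With the length of the longest coding transcript the nonmuscle class took 13.8% at D5, the slow and cardiac class 2.82% and the fast and developmental class 83.4%. On the TPM scale, which is relative to all transcripts of a library, the summed nonmuscle level went from 1124 to 475 TPM while the sum of all classes rose 4.76-fold, from 1128 to 5371 TPM. The smaller nonmuscle share was therefore made up of both a fall of *Myh9* and *Myh10* and a rise of the other chains.

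Among the sarcomeric heavy chains alone, the slow and cardiac share was 2.64% ± 0.850 at D0 and 2.59% ± 0.262 at D5, with overlapping libraries and an exact permutation p of 1. The D0 value rests on few reads. Within the slow and cardiac class at D5, *Myh7* took 75.5% ± 0.380, *Myh7b* 14.8% ± 0.539 and *Myh6* 9.72% ± 0.521, so the libraries held these 3 genes in nearly the same proportions. These shares depend on the length used: the annotated exons of *Myh7* cover 8616 bases and its longest coding transcript has 6230. The 5 fast and developmental chains all rose, from a sum of 3.58 to 4769 TPM. Their log2 fold changes ran from 7.85 (*Myh2*) to 14.02 (*Myh4*), and those of *Myh7*, *Myh6* and *Myh7b* lay within that range. The values of *Myh4* and *Myh8* (12.55) rest on 6 and 3 reads at D0: *Myh4* had 14.94 without D0 replicate 1 and *Myh8* 15.38 without D0 replicate 3.

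**Figure D3:**
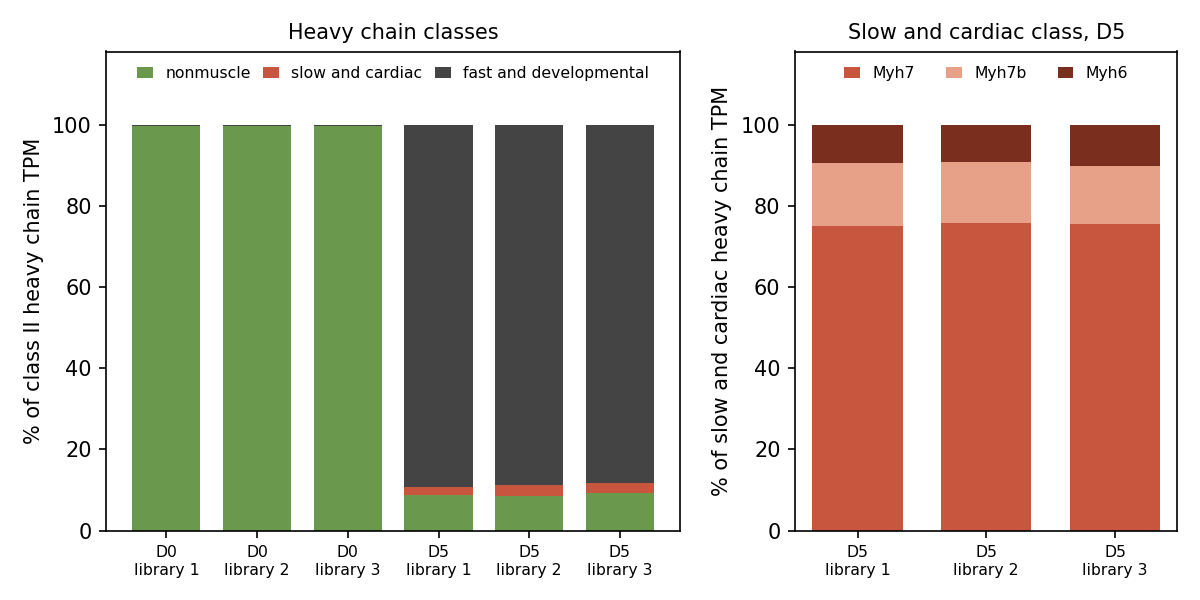
Left, the share of class II heavy chain TPM taken by the nonmuscle, the slow and cardiac and the fast and developmental chains in each of the 6 libraries; right, the shares of *Myh7*, *Myh7b* and *Myh6* within the slow and cardiac class in the 3 D5 libraries. The nonmuscle chains fill the D0 bars (99.67% on average) and take 8.85% of the D5 bars, and the D5 libraries differ little from each other in either panel.

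The light chains, like the heavy chains, moved in both directions. Of 12 light chain genes 9 were tested, of which 5 rose and 4 fell, with a median log2 fold change of 3.99 beside 0.0022 for all genes. The counts of this and each list below stand beside 42.2% of all genes tested that were higher and 40.8% that were lower. The 4 that fell are light chains of nonmuscle and smooth muscle myosin: *Myl6* (923 ± 53.2 to 266 ± 16.5 CPM) is an essential light chain, and the regulatory chains *Myl9*, *Myl12a* and *Myl12b* went to 32.1%, 52.9% and 40.7% of D0. On the log2 scale *Myl6* changed by -1.80, *Myl9* by -1.64 and *Myl12a* by -0.92, beside -1.67 for *Myh10* and -1.04 for *Myh9*. *Myl6b*, an essential chain that is also used in slow muscle, rose from 11.1 ± 0.501 to 177 ± 13.2 CPM. *Mylpf*, the fast regulatory chain, rose from 6.05 ± 0.439 to 3416 ± 202 CPM. *Myl2*, the slow and ventricular regulatory chain and the partner of *Myh7*, had 0, 0 and 1 counts at D0 and 501, 677 and 538 at D5. *Myl3*, the slow and ventricular essential chain, stayed near the limit of detection, with 0, 1 and 1 counts at D0 and 1, 2 and 5 at D5.

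The regulators of nonmuscle myosin II did not move as a block. Of 26 genes 25 were tested, of which 8 rose and 15 fell, with a median log2 fold change of -0.26. On the spike-in scale 4 rose and 4 fell. The largest falls were those of *Ect2* (to 5.64% of D0) and *Racgap1* (to 12.4%), which act on RhoA at the contractile ring. *Rock1*, a kinase that raises phosphorylation of the regulatory light chain, fell to 70.1% of D0, a log2 fold change of -0.51, and *Ppp1r12a*, the targeting subunit of myosin phosphatase, to 81.0%, or -0.30. On the spike-in scale these values were larger, -1.08 (SE 0.520) and -0.89 (SE 0.517), and with the larger errors neither was called. *Rock2* was at 403 ± 4.17 and 390.5 ± 6.65 CPM (adjusted p = 0.19 in edgeR's test). *Limch1*, an activator of nonmuscle myosin IIA, had 1, 1 and 0 counts at D0 and 315, 326 and 338 at D5. Myosin light chain kinase, *Mylk*, rose from 1.05 ± 0.220 to 40.3 ± 2.11 CPM. *S100a4*, which binds the *Myh9* tail and takes its filaments apart, rose from 14.2 ± 0.609 to 42.2 ± 1.52 CPM, a log2 fold change of 1.57 that was 1.00 (SE 0.524) and not called on the spike-in scale.

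Of 14 partners of nonmuscle myosin in stress fibers and at the cortex, all tested, 10 fell and 3 rose, with a median log2 fold change of -1.51. The largest falls were those of cytoplasmic gamma-actin, *Actg1* (2363 ± 119 to 362 ± 33.1 CPM), and filamin A, *Flna* (4764 ± 78.7 to 747 ± 14.4 CPM), both greater than those of *Myh9* and *Myh10*. The largest rises were those of the tropomyosins *Tpm2* (681 ± 19.7 to 3059 ± 46.1 CPM) and *Tpm1* (1049 ± 13.8 to 1593 ± 43.0 CPM), genes that also make tropomyosins of the sarcomere. The log2 fold change of *Tpm1*, 0.60, was 0.052 (SE 0.509) and not called on the spike-in scale.

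The other slow and cardiac sarcomere genes mostly rose with *Myh7*. Of 20 genes 15 were tested, of which 14 rose and 1 fell, with a median log2 fold change of 6.40. Those not tested, *Myl3*, *Myl7*, *Pln*, *Mybpc3* and *Nppa*, had at most 7 counts in any library. Slow troponin I, *Tnni1*, rose from 1.26 ± 0.217 to 1708 ± 101 CPM, a log2 fold change of 10.39 that is near those of *Myh7* and *Myh6*. The one that fell was *Nppb*, brain natriuretic peptide, from 1.51 ± 0.271 to 0.175 ± 0.103 CPM. Few markers of cardiomyocytes were found beside the cardiac heavy chains. Of 12 such markers 6 had at most 3 counts in every library, among them the heart transcription factors *Tbx5*, *Tbx20*, *Hand1* and *Hand2*, and the atrial genes *Nppa* and *Myl7*. Of the 4 that could be tested, *Tnni3* rose (0.589 ± 0.133 to 1.78 ± 0.156 CPM), with a log2 fold change of 1.58 that was 1.00 (SE 0.557) and not called on the spike-in scale, and *Nppb* and *Nkx2-5* (4.62 ± 0.379 to 2.48 ± 0.416 CPM) fell. The last, *Gata4*, a transcription factor of the heart and other tissues, was at 16.9 ± 0.453 and 16.3 ± 0.399 CPM (edgeR adjusted p = 0.40). The summed level of the list was between 23.4 and 24.9 CPM at D0 and between 20.2 and 21.9 at D5.

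The known regulators of slow and cardiac myosin genes moved in both directions. Of 33 genes 30 were tested, of which 17 rose and 10 fell, with a median log2 fold change of 0.16. Over all genes tested, 42.2% were higher and 40.8% lower, so a split in both directions is not particular to this list. On the spike-in scale 5 rose and 3 fell. *Mef2c*, a transcription factor of muscle genes, rose from 0.633 ± 0.0497 to 159 ± 7.44 CPM, *Esrrg*, a nuclear receptor of oxidative fibers, from 0.215 ± 0.0837 to 8.10 ± 0.823 CPM, and *Tbx15*, a factor of glycolytic fibers, from 19.7 ± 0.744 to 264 ± 4.12 CPM. *Mef2d* rose to 233% of D0, a log2 fold change of 1.22 that was 0.65 (SE 0.515) and not called on the spike-in scale. *Purb*, a repressor of *Myh7* and *Myh6* and a target of the miRNAs printed above, fell from 649 ± 3.58 to 264 ± 3.33 CPM. The related *Pura* rose to 131% of D0, a log2 fold change of 0.39 with TMM factors. Its value on the spike-in scale, where the median of all genes was -0.58, is not given here. *Sp3* fell to 56.7% of D0, and *Tead1*, a factor that binds CATTCC, to 80.0%. *Tead4*, another TEAD factor, moved the other way, from 5.29 ± 0.217 to 107 ± 0.402 CPM, a log2 fold change of 4.34. The log2 fold change of *Tead1* was -0.32, and on the spike-in scale it was -0.89 (SE 0.516) and not called. *Sox6*, the repressor of slow fiber genes and another target of these miRNAs, was at 0.0746 ± 0.0231 and 0.0937 ± 0.0464 CPM and could not be tested.

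Genes for the folding and turnover of myosin were also examined. All 10 were tested, of which 7 rose and 3 fell, with a median log2 fold change of 1.40. On the spike-in scale 4 rose and 2 fell. The myosin chaperones parted: the general *Unc45a* fell to 60.6% of D0, a log2 fold change of -0.72, and the striated muscle form *Unc45b* rose from 3.92 ± 0.0898 to 240 ± 7.24 CPM, a log2 fold change of 5.93. *Hsp90aa1*, with which both work, fell from 1075 ± 19.0 to 318 ± 8.99 CPM. The ubiquitin ligase genes *Trim63* (0.293 ± 0.0942 to 98.0 ± 1.63 CPM) and *Trim54* (1.24 ± 0.280 to 92.1 ± 6.49 CPM) had the largest rises.

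**Figure D4:**
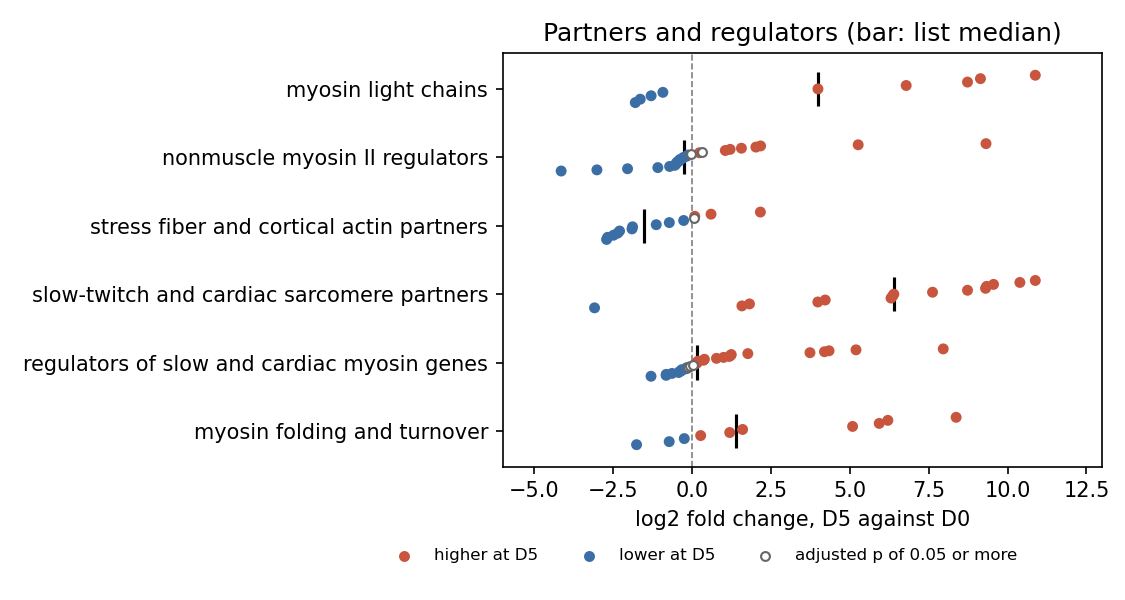
Log2 fold change of D5 against D0 of each tested gene in 6 lists of partners and regulators, with called genes filled (red higher, blue lower), genes with an adjusted p of 0.05 or more open, the list median as a black bar and the median of all genes tested (0.0022) as a dashed line. The medians run from -1.51 for the stress fiber and cortical partners to 6.40 for the slow-twitch and cardiac sarcomere partners.

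The genes whose pattern over the 6 libraries was most like that of each chain were sought among the 11887 tested genes that averaged 100 counts or more in either group, by the Euclidean distance of log2 CPM (prior count of 2) relative to the gene's own D0 mean. These are descriptions, since the points share the libraries. Nearest to *Myh7* were *Prelp*, a proteoglycan of the matrix (0.585), and *Tnni1* (0.679). Nearest to *Myh6* were *Cav3*, muscle caveolin (0.179), *Tnni2*, fast troponin I (0.420), and *Myl4*, the atrial and embryonic light chain (0.433). *Myh7b* was nearest to *Myl2* (0.328), *Trim63* (0.332) and *Tcap*, titin-cap (0.567). A small distance did not always mean a like fold change, since the prior count weighs on chains with few D0 reads. The log2 fold changes were 11.04 for *Cav3* and 8.73 for *Tnni2* and *Myl4*, beside 11.10 for *Myh6*. They were 10.88 for *Myl2*, 8.37 for *Trim63* and 9.28 for *Tcap*, beside 8.99 for *Myh7b*.

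The distances were smaller for the abundant nonmuscle chains. *Myh9* was nearest to *Twf1*, an actin monomer binder (0.0483), *Nfya*, a subunit of the factor that binds CCAAT (0.0498), and *Sh3kbp1* (0.0560). *Myh10* was nearest to *Ttyh3* (0.0661), *Pgm1*, phosphoglucomutase (0.0671), and *Noct*, nocturnin (0.0754). *Myh14* was nearest to *Pstpip1* (0.282), *Cx3cl1*, the chemokine fractalkine (0.339), and *Sgcd*, delta-sarcoglycan (0.386). The distance grows with counting error, so it cannot be compared between genes of different depth.

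Markers of other cell types were low apart from single genes. All 4 adipocyte markers and, of 6 immune markers, *Ptprc*, *Adgre1* and *Cd3e* had at most 3 counts in every library. The summed immune level was between 3.16 and 3.39 CPM at D0 and between 1.93 and 2.64 at D5, nearly all of it *Cd68*, the one marker of this list that was called, lower at D5 with a log2 fold change of -0.50, which on the spike-in scale was -1.02 (SE 0.539) and not called. Of 6 endothelial markers 1 rose and 2 fell, and the summed level was between 3.41 and 3.90 CPM at D0 and between 1.26 and 1.49 at D5. Of 5 epithelial markers 1 rose, *Cdh1* (0.0162 ± 0.0140 to 1.93 ± 0.300 CPM), and 1 fell, and the sum was between 0.968 and 1.05 CPM at D0 and between 1.87 and 2.61 at D5. Of 6 neural and glial markers 2 fell, with *Tubb3* (220 ± 4.84 to 4.22 ± 0.214 CPM) making up most of a sum between 219 and 227 CPM at D0 and between 5.26 and 5.80 at D5. Their part in the levels of the heavy chains was not tested.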

How the data were processed

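RNA-seq was performed on 6 C2C12 cultures, 3 at D0 and 3 at D5. The authors deposited, for each culture, whole-number counts of reads per gene, without normalization, made with featureCounts on GRCm38. For alignment the paper names HISAT2 but the labels Tophat2, so the aligner behind the counts is uncertain. Read length, strandedness, annotation release and the handling of multi-mapped reads are not given in the sources used here. The 92 ERCC rows (from 0.720% to 2.09% of counts) and 1 unnamed row that equals the column total entered neither library sizes nor tests.

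From the deposited counts, TMM factors, CPM and quasi-likelihood tests came from edgeR 4.0.16 (R 4.3.3, filterByExpr), with Benjamini-Hochberg adjustment over 16290 genes and a threshold of 0.05. SE was taken as the size of the log2 fold change over the root of F. TPM used the exonic length of GENCODE vM21, which matched 99.8% of the rows by gene ID. Shares and ratios within a library were compared by two-sided exact permutation tests. On simulated counts of 15089 genes, only some of them changed, the edgeR test recovered 92.3% of those changed 2-fold. Of its calls there, 5.70% fell on unchanged genes. Rises as large as those of the heavy chains, and data in which most genes differ, were not tested in this way. Replicates differed by more than sampling noise (chi-square over degrees of freedom 2.28 to 3.71), so each library was counted. Nothing says how separate the cultures were, so p-values measure the spread between these samples, which may be technical.

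The heavy chain genes and the lists were chosen with earlier results of these data known. The genes named are the 8 heavy chains, the genes of each list (for lists over 6 genes, the 2 largest rises and 2 largest falls past the threshold and direct regulators or partners of a heavy chain), and the 3 genes nearest in pattern to each tested chain. A few genes that this rule names are not reported here. *Gata4* and single markers outside this rule were named after their values were seen. Alternatives were DESeq2 1.42.0, upper-quartile factors, total counts, ERCC scaling, other filters, a replicate block, each library left out, *Myh6* and *Myh7* summed, CPM in place of TPM and, chosen after seeing the data, the length of the longest coding transcript.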

Additional observations from a re-analysis of the deposited data

How the results depend on the processing

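In each of 80 refits of the 6 tested heavy chains, over all the alternatives in which the gene could be fitted, the direction and the call were as given above. Without one library the log2 fold change ran from -1.07 to -1.01 for *Myh9*, from -1.72 to -1.64 for *Myh10*, from 4.91 to 5.32 for *Myh14*, from 10.70 to 11.14 for *Myh7*, from 8.73 to 9.52 for *Myh7b* and from 10.64 to 12.66 for *Myh6*. Requiring 10 or more counts in all libraries removed the chains that rose, so that 0 were called higher by edgeR, and no value can be given for them under it. Scaling to the ERCC spike-ins gave 1813 genes higher and 3747 lower. Over the genes of the lists it gave 43 higher and 35 lower, beside 68 and 56 in the main fit. The spike-in counts ran from 284648 to 341518 in the D0 libraries and from 184602 to 546930 in the D5 libraries. The cause of the fewer calls was not tested. Of 867 refits that covered most of the other named genes, 856 kept direction and call. With CPM in place of TPM the shares at D0 and D5 were 99.83% and 16.4% for the nonmuscle class, 0.00527% and 2.81% for the slow and cardiac class and 0.159% and 80.8% for the fast and developmental class, and with the length of the longest coding transcript 99.79% and 13.8% (nonmuscle), 2.82% at D5 (slow and cardiac) and 0.196% and 83.4% (fast and developmental), since the former divides by no length and the latter by another. Groups share replicate numbers, but the deviations of same-numbered libraries correlated at only 0.033, 0.064 and 0.028, although each library correlated best with its own number, and with the replicate number as a block the log2 fold changes were -1.04 for *Myh9*, -1.67 for *Myh10*, 5.05 for *Myh14*, 10.93 for *Myh7*, 9.00 for *Myh7b* and 11.10 for *Myh6*, with no call changed. Counts of 11 or fewer at D0 limit the precision of every rise, and those of *Myh11* in both groups limit what could be seen of it.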
